A study of Mus musculus with 50 samples.

Results

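Genes that mark GABAergic interneurons or handle GABA, 9 in all, were followed in the mouse hippocampus: the GABA-synthesizing enzymes Gad1 and Gad2, the vesicular GABA transporter Slc32a1, the calcium-binding proteins Pvalb and Calb2, and the neuropeptides Sst, Vip, Cck and Npy. Every probe of the Agilent array that is not a control and carries one of these symbols was taken, whatever its value, which gave 12 probes for 9 of 17683 named genes, among 41174 probes in all. By symbol, Gad1 has 2 probes, Calb2 has 3, and each of the other 7 genes has 1, each spotted once per array. The tissue came from 5 wild-type (WT) male C57/BL6j mice and 5 transgenic (TG) males on that background which overexpress DCLK-short, a splice variant from the doublecortin-like kinase gene Dclk1 that leaves the kinase constitutively active. Both hippocampi of each mouse were dissected, and neither the age of the mice nor the promoter that drives the transgene is given in the sources used here. RNA was amplified, labelled with Cy3 or Cy5 and hybridized to 10 two-color arrays, each with 1 WT and 1 TG mouse. By the labels, Cy3 marked the WT mouse on arrays 1 to 5 and the TG mouse on arrays 6 to 10, and every mouse was on 2 arrays, once with each dye.

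GABAergic interneurons are the local inhibitory neurons of the hippocampus. They make GABA from glutamate with the glutamic acid decarboxylases, load it into vesicles with the vesicular transporter, and release it onto pyramidal cells, granule cells and one another. Subclasses differ in their calcium-binding proteins and peptides: parvalbumin marks fast-spiking basket and axo-axonic cells, somatostatin marks dendrite-targeting cells, and vasoactive intestinal peptide and calretinin mark cells of which many contact other interneurons. Cholecystokinin and neuropeptide Y mark further subclasses, but Cck is also transcribed in glutamatergic neurons. In whole tissue, fewer cells of a type and less RNA per cell cannot be told apart.

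The log2 ratios below are of TG over WT as labelled, after loess within each array. The dyes of the labels are also those of the study's hybridization scheme. For Gabra2, a GABA-A receptor subunit, the direction they give is opposite to the study's. The study reports Gabra2 as lower in TG on all its platforms, Agilent included, and by quantitative RT-PCR. It states no direction for the 9 genes. As labelled, the Gabra2 probe A_51_P417507 was at 1.26 ± 0.232 (SE, n = 10 arrays, limma FDR 0.0223), above 0 on 10 of 10 arrays. The study's own Agilent value for Gabra2 is below 0 and smaller in size. If arrays 1 to 5 are exchanged with arrays 6 to 10, every sign turns. Over the present probes, with the mean of each dye orientation removed, the 6 pairs of arrays that share a mouse only after that exchange correlated with a mean r of 0.183 (range -0.286 to 0.500), whereas the 6 pairs that share a mouse only as labelled had a mean r of -0.140 (range -0.535 to 0.0752). The 9 pairs that share no mouse either way had a mean r of -0.185 (range -0.484 to 0.141). The 4 pairs that share a mouse either way had a mean r of 0.475 (range 0.249 to 0.808). Which assignment is true was not tested further here. Below, unless the exchange is named, leaving out or averaging a mouse follows the labels. After the exchange, the arrays grouped in that way need not share a mouse. Dclk1, the gene of the transgene, had 4 probes with log2 ratios between -0.06 and -0.08 and none was called. Whether these probes match the transgene's transcript is not given in the sources used here, so they check no label. Arrays 1 and 9 stood apart: the SD of the log2 ratio over all probes was 0.321 and 0.384 there and 0.138 to 0.226 on the others. Their mean log2 ratio of 8 oligodendrocyte probes (Mbp, Mog, Mag and Mobp) was -0.93 and -0.86, against -0.34 to 0.15 on the others. These means rest in part on Mbp probe A_52_P329451, whose lowest value was -4.32, where no other of the 8 went below -1.40. The mean of that probe was -1.15 over all arrays and -0.40 without arrays 1 and 9. As labelled both arrays hold TG4, and after the exchange both hold WT5.

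All 12 probes gave signal. In Cy3 and in Cy5, each was brighter on all 10 arrays than 95% of the 314 negative controls, which held for 33793 of the 41174 probes (82.1%). The scanner software called each well above background in both channels on 10 of 10 arrays, and none was saturated. The dimmest was Pvalb, with mean pixel intensities of 85.1 to 182 (median 122) in the WT and 92.6 to 332 (median 135) in the TG channel, above control limits of 40.0 to 45.7 in Cy5 and 61.8 to 80.2 in Cy3. Glutamatergic and hippocampal marker probes were also present, 10 of 10 and 12 of 14 respectively.

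Of the 12 probes, 3 passed an FDR of 0.1 (limma's moderated test, Benjamini-Hochberg over all probes), those of Cck and Npy and 1 of Calb2. All 3 were higher in TG as labelled, where 7.41% of all probes (8.83% of the present ones) passed in either direction and 3.66% passed as higher. The median log2 ratio was 0.16 over the 12 probes and 0.00 over all probes. Of the 12, 9 were above 0, all 3 Calb2 probes among them, as were 21400 of all 41174 probes. No probe of the 9 genes kept one sign on all 10 arrays, which 2.11% of all probes did. Arrays were treated as separate values, as in the study's log ratio model. With 1 mean level per mouse, 5 against 5, limma called none of the 12 (3 had an unadjusted p under 0.05) and 24 of all 41174 probes. That fit does not keep the pairing of the WT and the TG channel on an array, so it differs in more than the repeat mice. With 1 value per TG mouse, the mean of its log ratios, 4 of the 12 and 2642 of all probes were called. With 1 value per WT mouse these were 2 and 1769. When the log ratios were centred on the median instead of fitted by loess, the called probes were those of Cck, Npy and Sst, all higher, while the share of higher calls over all probes went from 49.3% to 92.3%.

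**Figure D1:**
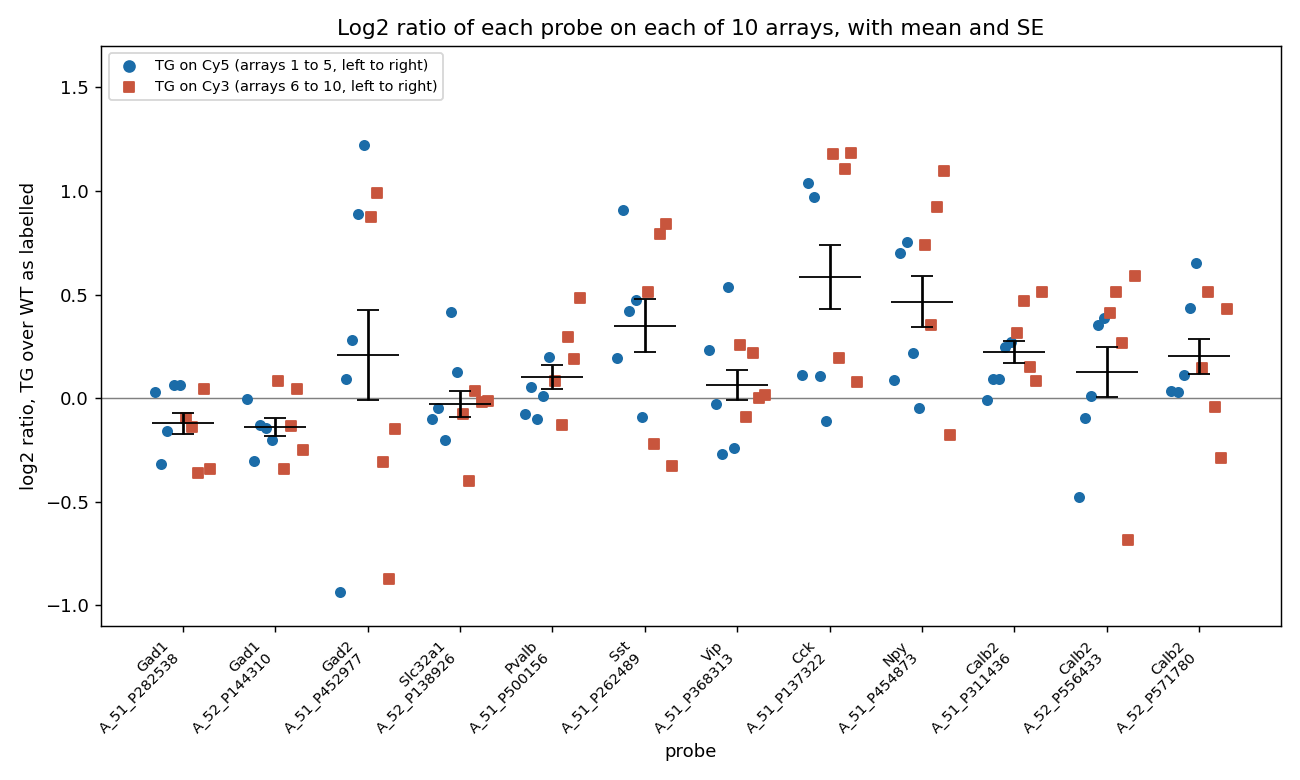
Log2 ratio of TG over WT as labelled (y axis) for each of the 12 probes (x axis) on each of the 10 arrays, blue circles for TG on Cy5 and red squares for TG on Cy3; black lines are the mean and its moderated SE. Cck, Npy and Sst spread from -0.33 to 1.18, Gad2 spreads from -0.93 to 1.22, and the Gad1 probes stay between -0.36 and 0.08.

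Of the neuropeptides, Cck, Npy and Sst had the highest mean ratios of the 12 probes. By the probe that carries each symbol, Cck and Npy were 1.501-fold and 1.38-fold higher in TG as labelled. Sst had a mean of 0.35 on the log2 scale without passing the test, and Vip had a mean of 0.06. Because the ratios of Cck, Npy and Sst varied together from array to array, their promoters are shown, as the 250 bases before the annotated start (RefSeq, GRCm38.p6). The capitals mark TGACGTCA, the cAMP response element (CRE) to which CREB binds, or its core TGACG on either strand.

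Sst promoter, chr16:23890845-23891094, minus strand: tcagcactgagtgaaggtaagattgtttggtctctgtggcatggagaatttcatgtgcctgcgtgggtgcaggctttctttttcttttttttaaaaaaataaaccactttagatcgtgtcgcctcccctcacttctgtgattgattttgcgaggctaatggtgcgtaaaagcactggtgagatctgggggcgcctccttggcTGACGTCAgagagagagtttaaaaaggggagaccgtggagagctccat

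Cck promoter, chr9:121495695-121495944, minus strand: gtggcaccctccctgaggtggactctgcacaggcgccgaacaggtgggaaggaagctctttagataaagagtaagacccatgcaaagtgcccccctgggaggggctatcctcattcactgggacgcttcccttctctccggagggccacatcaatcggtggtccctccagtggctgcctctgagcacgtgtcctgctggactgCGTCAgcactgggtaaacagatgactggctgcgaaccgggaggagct

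Npy promoter, chr6:49822460-49822709, plus strand: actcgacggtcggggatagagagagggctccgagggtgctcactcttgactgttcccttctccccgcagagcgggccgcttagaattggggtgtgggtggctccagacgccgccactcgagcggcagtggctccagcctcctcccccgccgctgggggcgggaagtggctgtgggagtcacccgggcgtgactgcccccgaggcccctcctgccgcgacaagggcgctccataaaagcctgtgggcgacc

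The Sst window held the whole element 48 bases before the start, which 1.55% of 32851 promoter windows of that length hold. The Cck window held the core on its other strand 47 bases before the start, and the Npy window held neither. The core, which lies within every whole element, was present in 17.8% of all windows and in those of Gad2, Sst, Vip and Cck among the 8 genes with a promoter sequence. These matches are letters in a window and were not tested against the expression values.

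Cck, a peptide of a class of basket cells that inhibit the pyramidal cell body, gave raw signals of 9981, 3747, 3532, 5806, 8316, 3884, 5156, 3906, 3331 and 7662 for the WT mouse on arrays 1 to 10. The TG mouse gave 9219, 5631, 7363, 6381, 17108, 9726, 14360, 7544, 12087 and 7844. The raw TG signal was the higher on 9 of 10 arrays, all but array 1, although raw channels also differ by dye and scan. After loess the log2 ratios on arrays 1 to 10 were 0.11, 1.04, 0.97, 0.11, -0.11, 1.18, 0.19, 1.104, 1.18 and 0.08. They fell apart into arrays 2, 3, 6, 8 and 9 near 1 and the other 5 arrays near 0, with no value in between. The mean was 0.59 ± 0.153 (SE, n = 10 arrays; SD 0.545) with an FDR of 0.0627 by limma. It was 0.42 ± 0.538 (SD, n = 5 arrays) with TG on Cy5 and 0.75 ± 0.561 with TG on Cy3. Another probe, A_52_P539124, carries no symbol but is described as a cholecystokinin cDNA. That probe was at 0.00 ± 0.0255 (SE, n = 10 arrays) with an FDR of 0.982 by limma. Its median signals were 209 in Cy3 and 178 in Cy5, against 8080 and 6006 for the probe with the symbol. The Cck call thus rests on the latter alone, and why the probes differ was not tested.

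Npy, a peptide of several dendrite-targeting interneuron classes, followed the same arrays. Its raw signals were 1220, 567, 455, 794, 1012, 524, 603, 568.04, 445 and 1088 for the WT mouse on arrays 1 to 10. The TG mouse gave 1026, 663, 781, 879, 1978, 961, 1757, 1010, 1390 and 953. The log2 ratios were 0.09, 0.70, 0.75, 0.22, -0.05, 0.74, 0.35, 0.92, 1.096 and -0.18. They were highest on arrays 2, 3, 6, 8 and 9, as for Cck, and lay below 0 on arrays 5 and 10. The mean was 0.46 ± 0.123 (SE, n = 10 arrays; SD 0.437), with an FDR of 0.065 by limma.

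Both calls were lost when any of the 5 arrays with high ratios was left out. Without array 2, 3, 6, 8 or 9, each left out in turn, the Cck mean was 0.52 to 0.54 with FDRs of 0.122 to 0.145, and the Npy mean was 0.39 to 0.44 with FDRs of 0.120 to 0.149, none of them called. Without both arrays of WT3 as labelled, the Cck mean was 0.45 (FDR 0.261) and the Npy mean 0.36 (FDR 0.256). They were also lost without both arrays of any TG mouse, of WT4 or of WT5. Without arrays 1 and 9, which is without TG4 as labelled, they were 0.57 (FDR 0.101) and 0.43 (FDR 0.1001). With 1 value per WT mouse the FDRs were 0.1603 for Cck and 0.175 for Npy, with 1 value per TG mouse they were 0.00277 and 0.015, and with robust regression that of Cck was 0.142.

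Sst, the peptide of dendrite-targeting O-LM cells, had log2 ratios of 0.19, 0.91, 0.42, 0.48, -0.09, 0.51, -0.22, 0.79, 0.84 and -0.33 on arrays 1 to 10. The high arrays were again 2, 8 and 9, and arrays 5, 7 and 10 lay below 0. The raw signals ranged from 1316 to 6549 (median 2711) in the WT and from 1821 to 8752 (median 4130) in the TG channel. The mean log2 ratio was 0.35 ± 0.126 (SE, n = 10 arrays) and its FDR was 0.152 with a 95% interval of 0.07 to 0.63. Spots of this probe were flagged as non-uniform in 7 channel readings, and without the flagged spots the mean was 0.53 (FDR 0.14). Its FDR went below 0.1 without both arrays of WT6 (0.49, FDR 0.0508), without array 7 (0.41, FDR 0.0959), without array 10 (0.43, FDR 0.0842) with median centring (0.49, FDR 0.0921), with the TG mouse as a block (FDR 0.0961) and with 1 value per TG mouse (FDR 0.0924).

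Vip, the peptide of interneurons of which many target other interneurons, did not follow these arrays. Its log2 ratios ran from -0.27 on array 3 to 0.54 on array 4, with a median of 0.01 and values on both sides of 0 in both dye orientations. The mean was 0.06 ± 0.0715 (SE, n = 10 arrays) and its FDR was 0.739 with a 95% interval of -0.09 to 0.22. By the order of its coordinates, the array's annotation lists this probe on the minus strand of chromosome 10, while RefSeq has Vip on the plus strand. Whether the probe reads the Vip transcript was not tested.

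**Figure D2:**
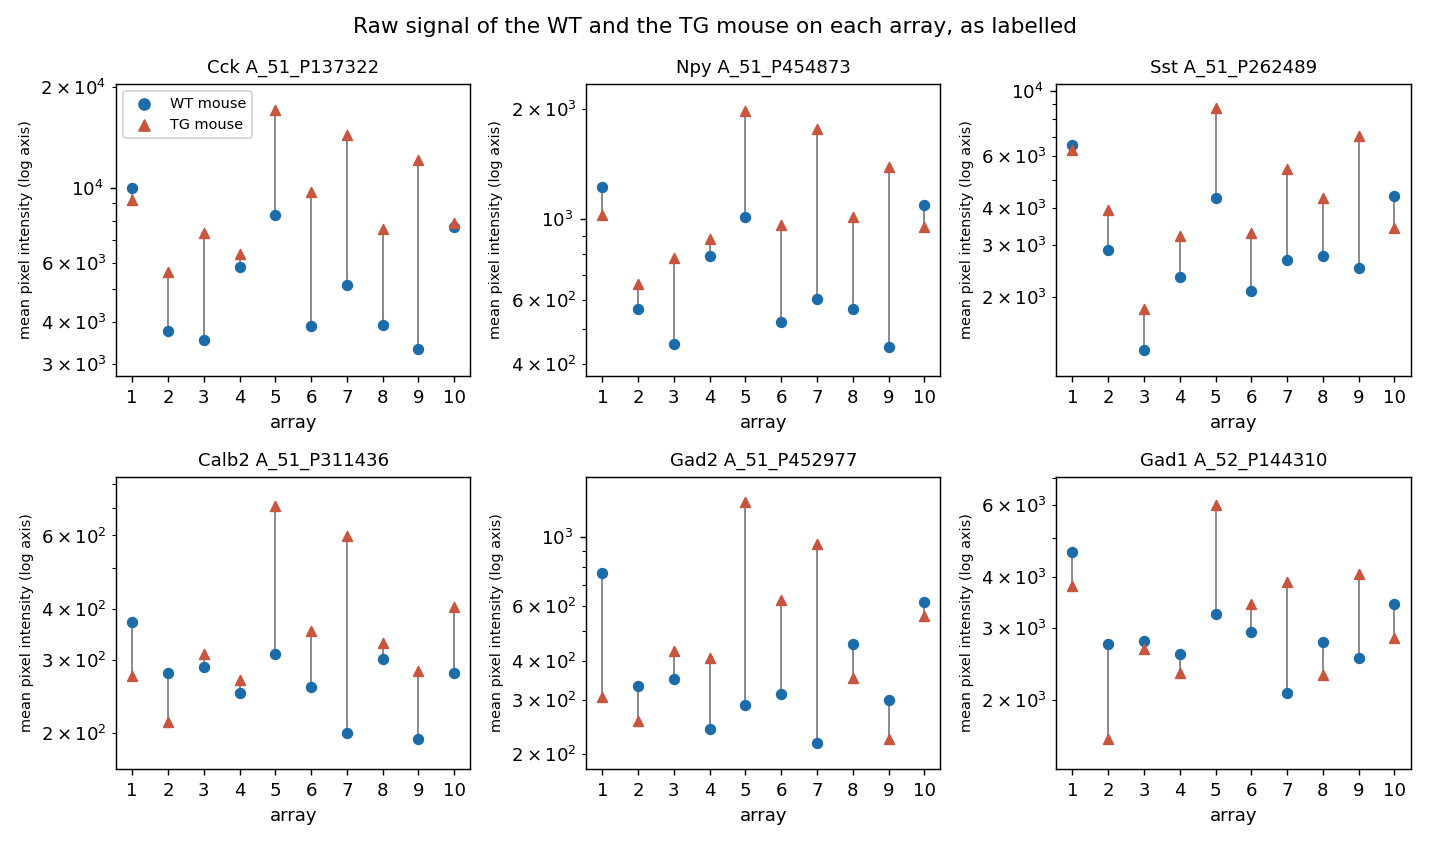
Raw mean pixel intensity (y axis, log scale) of the WT mouse (blue circles) and the TG mouse (red triangles) on each of the 10 arrays (x axis), for 6 probes, as labelled and before normalization. For Cck the TG signal lies above the WT signal on all arrays but array 1, whereas for Gad1 A_52_P144310 the order changes from array to array.

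Of the calcium-binding proteins, Calb2 (calretinin) was higher in TG as labelled with 1 of its 3 probes, and Pvalb (parvalbumin) did not pass the test. Probe A_51_P311436 of Calb2 had log2 ratios of -0.01, 0.09, 0.09, 0.25, 0.27, 0.31, 0.47, 0.15, 0.08 and 0.51 on arrays 1 to 10. The ratio was above 0 on 9 arrays and highest on arrays 7 and 10, where Cck was low. Its raw signals ranged from 194 to 371 (median 279) in the WT and from 214 to 708 (median 320) in the TG channel. The mean was 0.22 ± 0.0513 (SE, n = 10 arrays), a fold of 1.17, with an FDR of 0.0441, the only one of the 12 probes under 0.05.

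The other Calb2 probes had means of 0.13 ± 0.121 (A_52_P556433, FDR 0.671) and 0.20 ± 0.0838 (A_52_P571780, FDR 0.212), both with n = 10 arrays. The 3 probes moved together over the arrays, with r between 0.709 and 0.835, and A_52_P556433 was at -0.48 and -0.69 on arrays 1 and 9. Without these arrays all 3 probes passed, with means of 0.27 (FDR 0.0399), 0.30 (FDR 0.0682) and 0.28 (FDR 0.0925). That leaves out the lowest values of A_52_P556433, and 2016 of all 41174 probes passed there. With the 3 probes averaged into 1 value the mean was 0.18 and its FDR 0.231, and with median centring the call of A_51_P311436 was lost (0.29, FDR 0.123). That call was also lost without array 6 (0.21, FDR 0.109). It was lost too without both arrays of 7 of the mice as labelled (TG1, TG2, TG3, TG5, WT3, WT4 or WT5, with 0.20 to 0.26 and FDRs of 0.111 to 0.159).

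Pvalb had log2 ratios from -0.13 on array 7 to 0.48 on array 10, with a median of 0.07. The mean was 0.10 ± 0.0566 (SE, n = 10 arrays) and its FDR was 0.376 with a 95% interval of -0.02 to 0.23.

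None of the GABA synthesis and loading genes passed the test. Both Gad1 probes had means below 0 as labelled. Probe A_52_P144310 had log2 ratios of -0.00, -0.30, -0.13, -0.15, -0.20, 0.08, -0.34, -0.14, 0.05 and -0.25 on arrays 1 to 10, below 0 on 8 of them. The mean was -0.14 ± 0.0434 (SE, n = 10 arrays), just outside the limit with an FDR of 0.104. It was called as lower without array 6 (-0.16, FDR 0.0986), without array 9 (-0.16, FDR 0.0972) and without both arrays 1 and 9 (-0.18, FDR 0.0747), and it went to -0.00 (FDR 0.988) with median centring. With the mouse as a block its FDR was 0.0724 for TG mice and 0.0399 for WT mice as labelled. With 1 value per mouse it was 0.218 over TG mice and 0.0985 over WT mice, and with 1 channel mean per mouse it was 0.746. Raw signals of this probe were 2083 to 4599 (median 2785) in the WT and 1606 to 5995 (median 3137) in the TG channel.

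Gad1 probe A_51_P282538 had a mean of -0.12 ± 0.0509 (FDR 0.223) and correlated with the other Gad1 probe at r = 0.463 over the 10 arrays. The array's own annotation lists this probe at chr10:99426655-99426714, on a genome build that the files do not name, while RefSeq places Gad1 on chromosome 2. The sign of its mean turned with median centring (0.01, FDR 0.983).

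Gad2, the decarboxylase found mainly at axon terminals, had the widest spread of the 12 probes. Its log2 ratios were -0.93, 0.09, 0.28, 0.89, 1.22, 0.88, 0.99, -0.31, -0.87 and -0.15 on arrays 1 to 10. Arrays 4 to 7 lay near 1, and arrays 1 and 9 lay near -0.9. The SD over arrays was 0.777, where the median probe had 0.128, so the mean of 0.21 ± 0.218 (SE, n = 10 arrays) had an FDR of 0.707 with a 95% interval of -0.27 to 0.69. Raw signals ranged from 218 to 765 (median 322) in the WT and from 225 to 1299 (median 419) in the TG channel. On arrays 1 and 9, where Gad2 was lowest, the mean of the oligodendrocyte probes was also lowest. The part of this in the Gad2 values was not tested, and without these arrays the Gad2 mean was 0.49 (FDR 0.172).

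Slc32a1, which loads GABA and glycine into vesicles, had log2 ratios from -0.40 on array 7 to 0.42 on array 4. The mean was -0.03 ± 0.0615 (SE, n = 10 arrays) and its FDR was 0.885 with a 95% interval of -0.16 to 0.11.

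The level of each mouse was also taken as the mean of its channels on both arrays, on a log2 scale after loess and quantile normalization of the average intensities. For Cck the WT mice WT1, WT3, WT4, WT5 and WT6 were at 12.9, 12.1, 12.1, 12.4 and 12.9, and the TG mice TG1 to TG5 at 13.04, 13.08, 12.97, 13.15 and 13.01. Every TG mouse lay above every WT mouse as labelled, and most of the spread lay among the WT mice. Over all probes, the groups did not overlap in 2.09%, in either direction. The means were 12.5 ± 0.396 in WT and 13.1 ± 0.0676 in TG (SD, n = 5 mice each), with an FDR of 0.314 by limma.

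For Npy the WT mice were at 9.78, 9.19, 9.12, 9.49 and 9.96 and the TG mice at 9.85, 9.96, 10.09, 10.04 and 9.91 in the same order. WT6 reached into the range of the TG mice, and WT3 and WT4 were lowest, as for Cck. The means were 9.51 ± 0.364 in WT and 9.97 ± 0.0953 in TG (SD, n = 5 mice each), with an FDR of 0.404 by limma. After the exchange of arrays the low Cck levels fell to TG2 (12.04), TG3 (12.14) and TG4 (12.39), and the groups overlapped.

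For Gad2 the TG mice ran from 7.91 in TG4 to 9.30 in TG1 and the WT mice from 8.24 to 8.74, so the WT range lay inside the TG range. The SD was 0.218 in WT and 0.533 in TG as labelled (n = 5 mice each), and 0.524 and 0.397 after the exchange. The difference between the spreads was not tested.

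**Figure D3:**
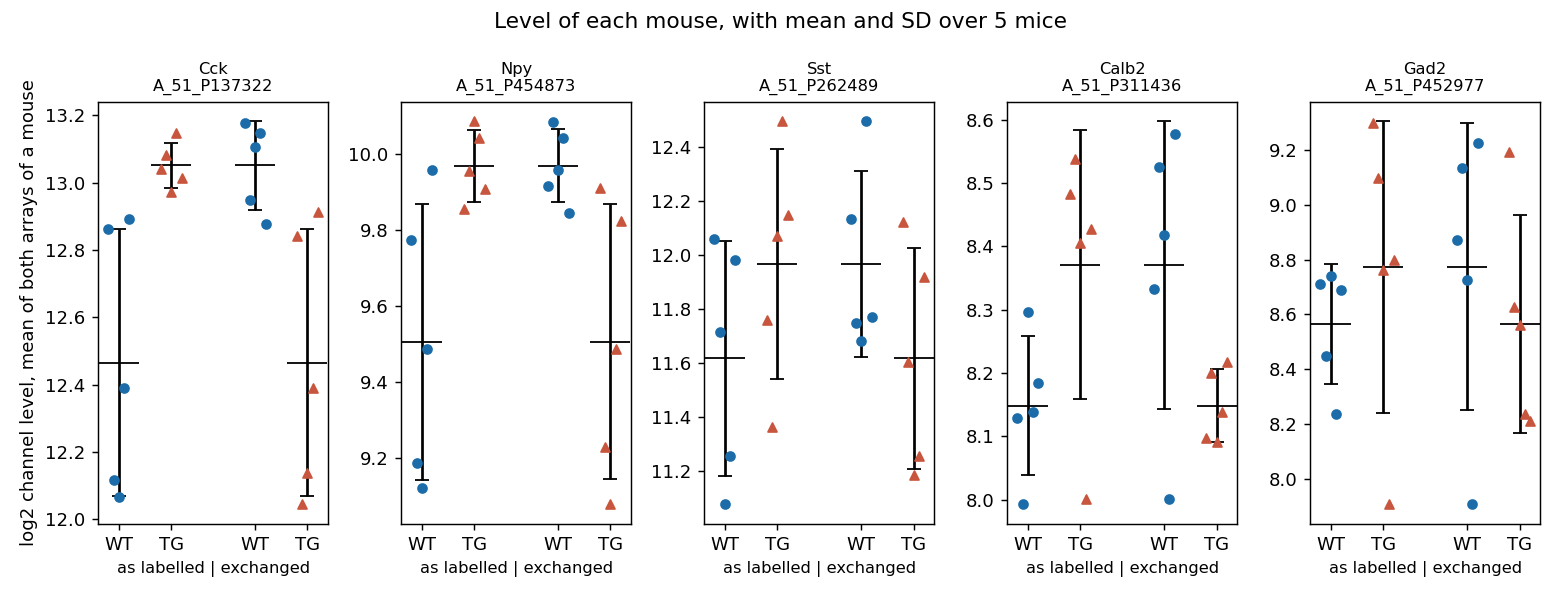
Log2 level (y axis) of each mouse, the mean of its channels on both arrays, for WT (blue circles) and TG (red triangles) mice in order of their numbers; black lines are the mean and SD over 5 mice, on the left of each panel as labelled and on the right after the exchange of arrays 1 to 5 with 6 to 10. Cck lies at 12.97 to 13.15 in all TG mice as labelled and spreads from 12.1 to 12.9 in WT, and the Calb2 and Gad2 levels of TG4 lie lowest among the TG mice.

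Over the 10 arrays, which share mice and dyes, the log2 ratios of the 9 genes were compared by correlations, given without a test. Cck and Npy correlated at r = 0.942, Sst and Npy at 0.831, and Sst and Cck at 0.813. Gad2 and Calb2 correlated with each other at 0.778, and Calb2 ran against Sst (-0.706), Npy (-0.607) and Cck (-0.555). Among the synthesis and loading genes, r was -0.0996 for Gad1 and Gad2, 0.105 for Gad2 and Slc32a1, and 0.279 for Gad1 and Slc32a1. Without arrays 1 and 9, which hold the lowest values of Gad2 and Calb2, r fell to 0.482 for Gad2 and Calb2 and went to 0.713 for Gad1 and Gad2. On those 8 arrays Cck and Npy kept an r of 0.934, and Calb2 had r = -0.894 with Sst, -0.817 with Npy and -0.822 with Cck. Over all 10 arrays, Pvalb and Vip had no r above 0.562 with any of the others, the highest being that of Vip with Slc32a1.

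**Figure D4:**
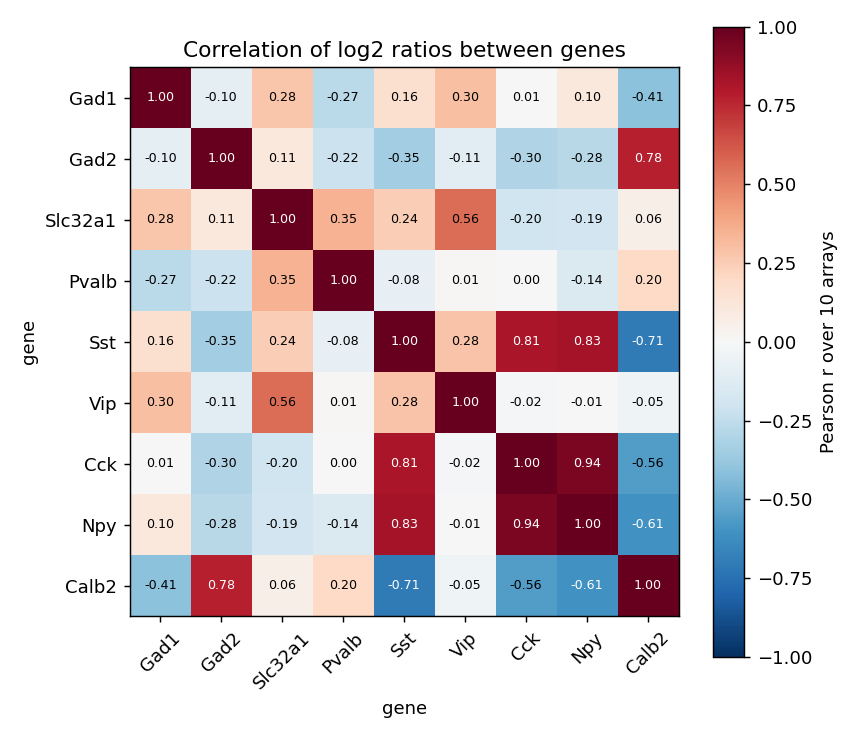
Pearson correlation over the 10 arrays of the log2 ratios of each pair of the 9 genes (both axes), probes of a gene averaged, with red for positive and blue for negative r. Sst, Cck and Npy form a block of 0.81 to 0.94, and Gad2 pairs with Calb2 at 0.78.

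Among 21431 present probes with a symbol, the most alike to Cck was Gabarap, a GABA-A receptor-associated protein (r = 0.990), and the most alike to Npy was Anapc15, a subunit of the anaphase-promoting complex (r = 0.982). Klf12, a transcription factor, was the most alike to Gad2 (r = 0.994), Ss18l2 to Sst (0.965), Rsph3a to Calb2 (0.975), Zbtb37 to Slc32a1 (0.948), Tnfrsf10b to Pvalb (0.945), Kcne1l to Vip (0.936) and LOC245297 to Gad1 (0.928). Each is the highest of many correlations over 10 arrays. Of these genes, Anapc15 was called, with a log2 ratio of 0.22 (FDR 0.0167), while Gabarap had 0.31 (FDR 0.199) and Klf12 had 0.02 (FDR 0.931).

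Other genes of the GABA cycle were given by a list of transporters and enzymes, of which 21 probes for 15 genes were on the array. Of these, 4 passed the test and all 4 were lower in TG as labelled, with a median of 0.00 over the list. Of all probes on the array, 3.76% were called as lower. Slc38a2, a glutamine transporter that supplies neurons with the precursor of glutamate and GABA, was lower with both of its probes, at -0.36 ± 0.0745 (FDR 0.0326, below 0 on 10 of 10 arrays) and -0.45 ± 0.134 (FDR 0.0941). Slc12a2, the chloride importer that opposes hyperpolarizing GABA responses, was at -0.22 ± 0.0472 (FDR 0.0369, below 0 on 10 of 10 arrays). Abat, the transaminase that breaks down GABA, was at -0.19 ± 0.0576 (FDR 0.0913). With 1 mean level per mouse none of these 4 probes passed, with FDRs of 0.443 to 0.888 by limma. All errors in this paragraph and the following ones are SEs over 10 arrays. Without arrays 1 and 9 the list had 3 called probes, again all lower, where 1008 of all 41174 probes were called as lower.

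Of 44 probes for 32 other interneuron genes, 4 were higher and 4 lower (18.2% called, against 7.41% of all probes), with a median of 0.00. Crhbp, a binding protein for corticotropin-releasing hormone, was the lowest at -0.41 ± 0.0677 (FDR 0.0167, below 0 on 10 of 10 arrays). Nxph1, a secreted ligand of alpha-neurexins, was lower with both called probes, at -0.25 ± 0.0487 (FDR 0.0295) and -0.32 ± 0.0914 (FDR 0.0836). Tac1, the precursor of substance P, was at -0.23 ± 0.0611 (FDR 0.0622). The homeobox gene Dlx1 was higher at 0.17 ± 0.0373 (FDR 0.0382), and Calb1, the calbindin of granule cells and some interneurons, at 0.14 ± 0.0339 (FDR 0.0513). Dlx5 and Sncg were also higher, by 0.15 and 0.18 on the log2 scale. With 1 mean level per mouse none of the called probes of this list passed, with FDRs of 0.223 to 0.814 by limma. Without arrays 1 and 9 the list had 2 higher and 4 lower probes, where 1008 of all 41174 probes were called in each direction.

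The receptors of the 4 peptides had 13 probes for 11 genes, of which 1 passed, or 7.69%, close to the 7.41% of all probes. This was Sstr2, a somatostatin receptor, with a log2 ratio of 0.17 ± 0.0403 (FDR 0.0516), above 0 on 10 of 10 arrays. With 1 mean level per mouse its FDR was 0.618 by limma. The receptors of Cck and Npy on the array did not pass, with Npy2r farthest from 0 at -0.33 (FDR 0.163). The 2 probes of the GABA-B receptor subunit Gabbr1 did not pass either, at 0.08 (FDR 0.366) and -0.03 (FDR 0.90).

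**Figure D5:**
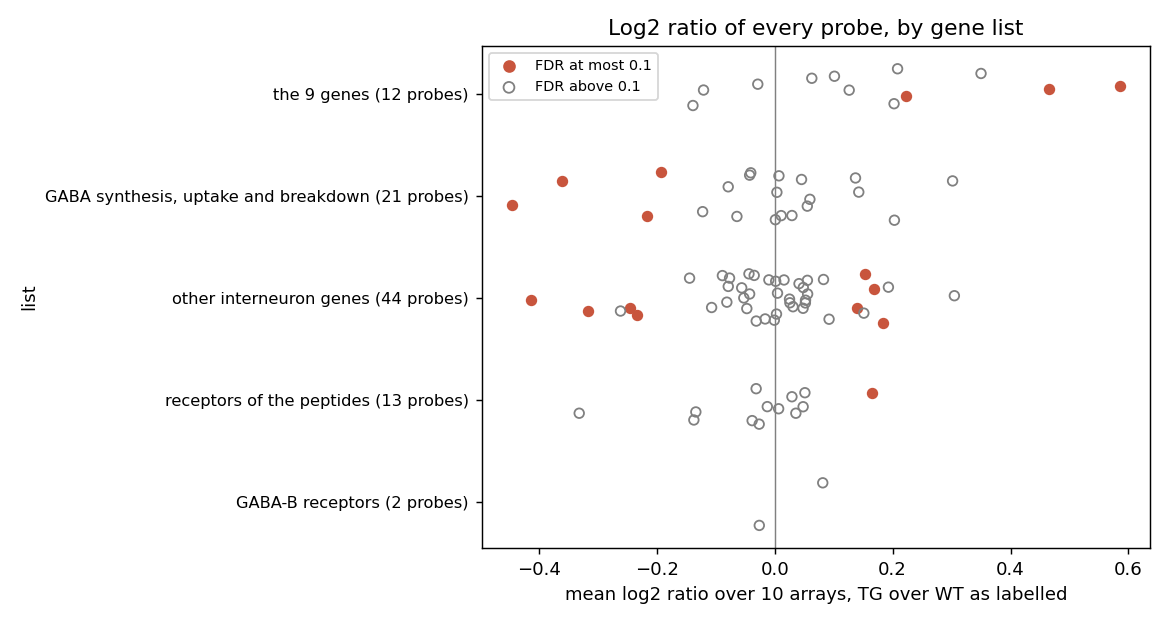
Mean log2 ratio over 10 arrays (x axis) of every probe of the 9 genes and of 4 related gene lists (y axis), filled red where the FDR was at most 0.1 and open grey otherwise. The filled probes of the 9 genes lie to the right of 0, those of the GABA cycle list to the left, and those of the other interneuron genes on both sides.

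Markers of other cells in the dissected tissue are read against the 7.41% of all probes called. Of 10 probes for glutamatergic neurons and 14 for hippocampal subfields, none passed, with array means between -0.17 and 0.09 on the log2 scale. For astrocytes 2 of 9 probes were higher, both of Aqp4 (0.42 and 0.31), whose remaining probe was at 0.19 (FDR 0.386). Of the 9 astrocyte probes, 5 had means above 0. For oligodendrocytes 1 of 8 was lower, of Mbp (-0.22). Another Mbp probe was farther from 0 without passing (-1.15, FDR 0.187). Of the 8 oligodendrocyte probes, 2 had means above 0, the higher being of Mobp (0.29, FDR 0.113). For microglia 2 of 10 probes were higher and 1 lower, for thalamus 3 of 10 were higher (2 of Zic1 and 1 of Slc17a6), and for choroid plexus and striatum none of 7 each passed. The other Slc17a6 probe was at -0.05 (FDR 0.861). With 1 mean level per mouse none of these called marker probes passed, the lowest FDR by limma being 0.435 (Aqp4). Without arrays 1 and 9, none of the microglia probes was called, and 3 astrocyte and 3 thalamus probes were higher and 2 oligodendrocyte probes lower. Of all 41174 probes, 2016 were called without these arrays. The mean level of the 8 oligodendrocyte probes lay between 9.96 and 10.29 in the WT mice and between 9.19 and 10.09 in the TG mice as labelled. Their part in the values of the 9 genes was not tested.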

How the data were processed

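Hippocampal RNA of 5 WT and 5 TG mice was read on 10 two-color Agilent arrays. Per the file headers, the authors used Agilent Feature Extraction 8.5.1.1 to read each spot's mean and median pixel intensity in both dyes, and deposited these intensities without normalization. The log10 ratio of Cy5 over Cy3, deposited in the same files, was already corrected for background and dye by that software and served as an alternative alone. Each array holds 43790 features and 41534 spots that are not controls.

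Here the ratio of mean intensities was normalized by loess within arrays (span 0.3) without background correction, controls having weight 0, then averaged over the spots of a probe and turned to TG over WT by the labelled dyes. An intercept was fitted over the 10 arrays with limma 3.58.1 in R 4.3.3, as in the study's log ratio model, with Benjamini-Hochberg adjustment over 41174 probes and an FDR of 0.1 as the limit. No probe was filtered out. Mouse levels came from channels after loess and Aquantile. Symbols came from RefSeq by accession, or from the probe's description. The number of arrays limits the precision, and since each mouse is on 2 arrays, p-values treat repeat measures of a mouse as separate.

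The 9 genes and the other lists were chosen with earlier results of these data known. All probes of the 9 genes were named, and of the other lists those called, up to 5 a list by smallest p; further list members, the marker genes, Gabra2, Npy2r and Gabbr1 were named after their values were seen. The values of 1 marker gene are not reported here, and its list was taken without it. The most alike gene is the present probe with a symbol that had the highest r. Scripts were tested on simulated data. Alternatives covered background correction, normalization, pixel summary, dye, array weights, robust regression, present probes, probe averaging, the mouse as block or unit, spot flags, a stricter FDR, and leaving out each array or mouse. The ABI table names none of the 9 genes by accession, the Illumina columns could not be tied to a mouse, and both were not used here, nor were the AFF and LGTC samples.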

Additional observations from a re-analysis of the deposited data

Results flagged for a closer look

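For the 12 probes, 24 groups of mouse levels (5 WT or 5 TG mice) and 12 of log2 ratios over the arrays were examined for a value far from the others, a check that chance alone meets in about 1 of 20 groups, and 2 groups of mouse levels met it. For Gad1 A_51_P282538, WT4 was at 11.4 on the log2 scale, above the other 4 WT mice, of which the nearest was at 11.2. For Calb2 A_51_P311436, TG4 was at 8.002, below the other 4 TG mice, of which the nearest was at 8.406. TG4 is the mouse that both of the arrays with the widest log2 ratios, 1 and 9, hold as labelled.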

How the results depend on the processing

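The number of called probes among the 12 was 3, and it was 5 with the TG mouse as a replicate block, 1 at an FDR of 0.05, and 0 with 1 channel mean per mouse, as labelled or with the arrays exchanged. Leaving out 1 array or mouse gave 0 to 4. Over all probes the number was 3053, and it was 1335 with median centring, 1203 at an FDR of 0.05, 5969 with the WT mouse as a replicate block, 5068 with the TG mouse as a replicate block after the exchange, 1769 with 1 value per WT mouse, 24 with 1 channel mean per mouse and 11 with the same after the exchange. Leaving out 1 array or mouse gave 282 to 3404. Beyond fewer samples in the latter and the sign of the block correlations below, the cause of these changes was not tested. The replicate numbers of the labels do not pair arrays, but a shared mouse does. Its estimated correlation was -0.140 for TG and -0.248 for WT mice as labelled, and -0.191 and -0.0453 after the exchange. With a negative correlation, an intercept fitted with the block has a smaller SE than one without it. The block fits are therefore no stricter about repeat mice than the main fit.

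Under the exchange every sign turns, with the same values in both block fits and in the channel means: -0.59 for Cck, -0.46 for Npy, -0.35 for Sst, -0.063 for Vip, -0.22, -0.13 and -0.20 for the Calb2 probes A_51_P311436, A_52_P556433 and A_52_P571780, -0.10 for Pvalb, -0.21 for Gad2, 0.0287 for Slc32a1, and 0.12 and 0.14 for the Gad1 probes A_51_P282538 and A_52_P144310. Without the exchange, signs turned with median centring for Gad1 A_51_P282538 (0.00604) and Slc32a1 (0.0792) and without non-uniform spots for Slc32a1 (0.0242). Leaving out 1 array or mouse turned signs for Slc32a1 (-0.0924 to 0.0396), Vip (-0.0204 to 0.12) and Gad2 (-0.0017 to 0.49). Cck was called under 16 of 20 other settings, Npy under 17, Calb2 A_51_P311436 under 16, Gad1 A_52_P144310 under 10 and Sst under 3, the exchanged ones included. As labelled, the block changed the calls of Sst and Gad1 A_52_P144310 and no other among the 12. The exchange in the block fits, the removal of non-uniform spots and the lists and correlations without arrays 1 and 9 were chosen after seeing the data. All arrays were scanned on the same day, so the scan day could not be fitted.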

Other observations

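Probes without a symbol, whose descriptions name cDNA clones of these genes, lie outside the 12. A_52_P663538, described as a glutamic acid decarboxylase 1 clone, was at 0.02 ± 0.0303 on the log2 scale (SE, n = 10 arrays; limma FDR 0.774) and median signals of 82.7 in Cy3 and 63.7 in Cy5. A_52_P539124, described as a cholecystokinin cDNA, had a log2 ratio of 0.00 ± 0.0255 (FDR 0.982) with median signals of 209 and 178.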
